A study of Homo sapiens with 60 samples.

Results

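Human cells can make serine, asparagine and cysteine for themselves, and the 10 genes described here encode enzymes of that synthesis and of the steps joined to it. PHGDH, PSAT1 and PSPH carry out the successive steps from the glycolytic intermediate 3-phosphoglycerate to serine. In mitochondria SHMT2 splits serine into glycine and a one-carbon unit on folate, and MTHFD2 and ALDH1L2 act on that folate in later steps. ASNS makes asparagine from aspartate and glutamine. CBS joins homocysteine to serine, and CTH then releases cysteine, a route called transsulfuration. PCK2 is the mitochondrial enzyme that turns oxaloacetate into phosphoenolpyruvate. Several of these genes, ASNS, PSAT1 and PHGDH among them, are well known targets of ATF4, a transcription factor whose translation rises when amino acids run short or proteins misfold. The genes were picked by symbol with earlier results of these data known, so their contrast with all genes is no independent evidence. All 10 were found among the 58395 gene identifiers of the count table, and all 10 passed the filter on low counts that left 18985 genes.

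The RNA came from HEK293A cells, which derive from human embryonic kidney, after knockout of TDP1 with CRISPR/Cas9. TDP1 is the repair enzyme that frees topoisomerase 1 trapped on DNA, every library carries this knockout, and unedited cells were not analysed here. Each of 3 clones (C6, F7 and G6) was left untreated or was exposed for 5 to 5.5 hours to 0.1% DMSO, to topotecan, to OL9-119 or to both compounds, called the combination below. Topotecan, a drug that traps topoisomerase 1 on DNA, was used at 100 nM with 0.1% DMSO, and OL9-119, a compound known as an inhibitor of TDP1, at 5 µM in 0.1% DMSO. The combination used the same doses, and its label names no DMSO. Each clone and treatment had 4 libraries, which the labels call biological replicates, so that a treatment had 12 libraries and the study 60. The labels do not say what the replicates of a clone shared, and each p-value measures the spread between these libraries. A difference between clones is one between 3 single lines that share the targeted gene.

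The libraries held 4.62 to 20.9 M counts each (median 11.4 M). At a common depth of 4.5 M counts, 14 libraries had 17454 to 19345 detected genes and the other 46 had 20160 to 23640. Of the 14 low-detection libraries 10 came from clone C6 and 4 from G6, and by treatment 4 were of the combination, 3 of OL9-119, 3 of DMSO, 2 of topotecan and 2 untreated. All 10 of the marker genes listed for HEK293 cells passed the filter, with a summed level of 1453 to 2429 CPM (a gene's counts relative to the total of its library), whereas 0 of 5 hepatocyte, 3 of 6 blood and 3 of 6 fibroblast markers passed, with summed levels of at most 1.94, 7.62 and 44.3 CPM. TDP1 itself lay between 17.8 and 42.3 CPM over the 60 libraries, a count over the whole gene that does not test the edited exon.

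Per kilobase of annotated exon, the enzymes spanned a wide range of levels in the 12 DMSO libraries. SHMT2 was at 50.4 ± 7.56 CPM per kb (mean ± SD, n = 12), MTHFD2 at 40.9 ± 3.99 and PSAT1 at 40.2 ± 4.36, and their spreads overlapped. PHGDH followed at 16.5 ± 2.27 CPM per kb, PSPH at 7.28 ± 1.48, CTH at 4.20 ± 1.04 and PCK2 at 3.14 ± 0.686, and the spreads of CTH and PCK2 overlapped. The lowest were ALDH1L2 at 1.38 ± 0.699, ASNS at 0.401 ± 0.245 and CBS at 0.0332 ± 0.0624 CPM per kb. Exon lengths are unions over annotated transcripts. For PHGDH the union (9217 bases) is much longer than its longest protein-coding reference transcript (2585 bases), which lowers its value per kb. The same holds for CBS (6786 against 2605 bases), SHMT2 (4838 against 2537), ASNS (4455 against 2356) and PCK2 (4189 against 2505). For PSAT1 both lengths are 2188 bases, so the order of the genes depends on the length used.

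OL9-119 raised 9 of the 10 genes over DMSO, all except CBS. CBS shares most of its transcript sequence with the gene model CBSL, and the counts of both are described further on. Among all 18985 genes tested, 4.47% passed the same threshold in that direction (adjusted p under 0.05, edgeR quasi-likelihood test with Benjamini-Hochberg adjustment, mean of the differences within the 3 clones). The median change of the 9 genes other than CBS, which had too few counts for a mean change, was 0.73 on the log2 scale, against 0.01 over all genes. The increases ran from 1.38-fold for SHMT2 to 3.58-fold for ASNS. For PSAT1, PSPH, MTHFD2, ASNS, PCK2 and CTH, every OL9-119 library lay above every DMSO library of its clone in all 3 clones, which was so for 0.506% of all genes. PHGDH, SHMT2 and ALDH1L2 were separated in this way in 2 of the 3 clones. In RNA from whole cultures, a change in the share of cells that express a gene and a change in RNA per cell cannot be told apart. The share of counts from mitochondrially encoded genes moved with the treatment, from a median of 5.21% in DMSO (3.90 to 6.64%) to 4.06% in OL9-119 (3.15 to 5.61%) and 4.34% in the combination (3.33 to 5.82%). With those genes left out of the table, 9 of the 10 enzymes passed under OL9-119 and 9 under the combination, with PSAT1 at 0.90 and ASNS at 1.84 under OL9-119 as before.

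**Figure D1:**
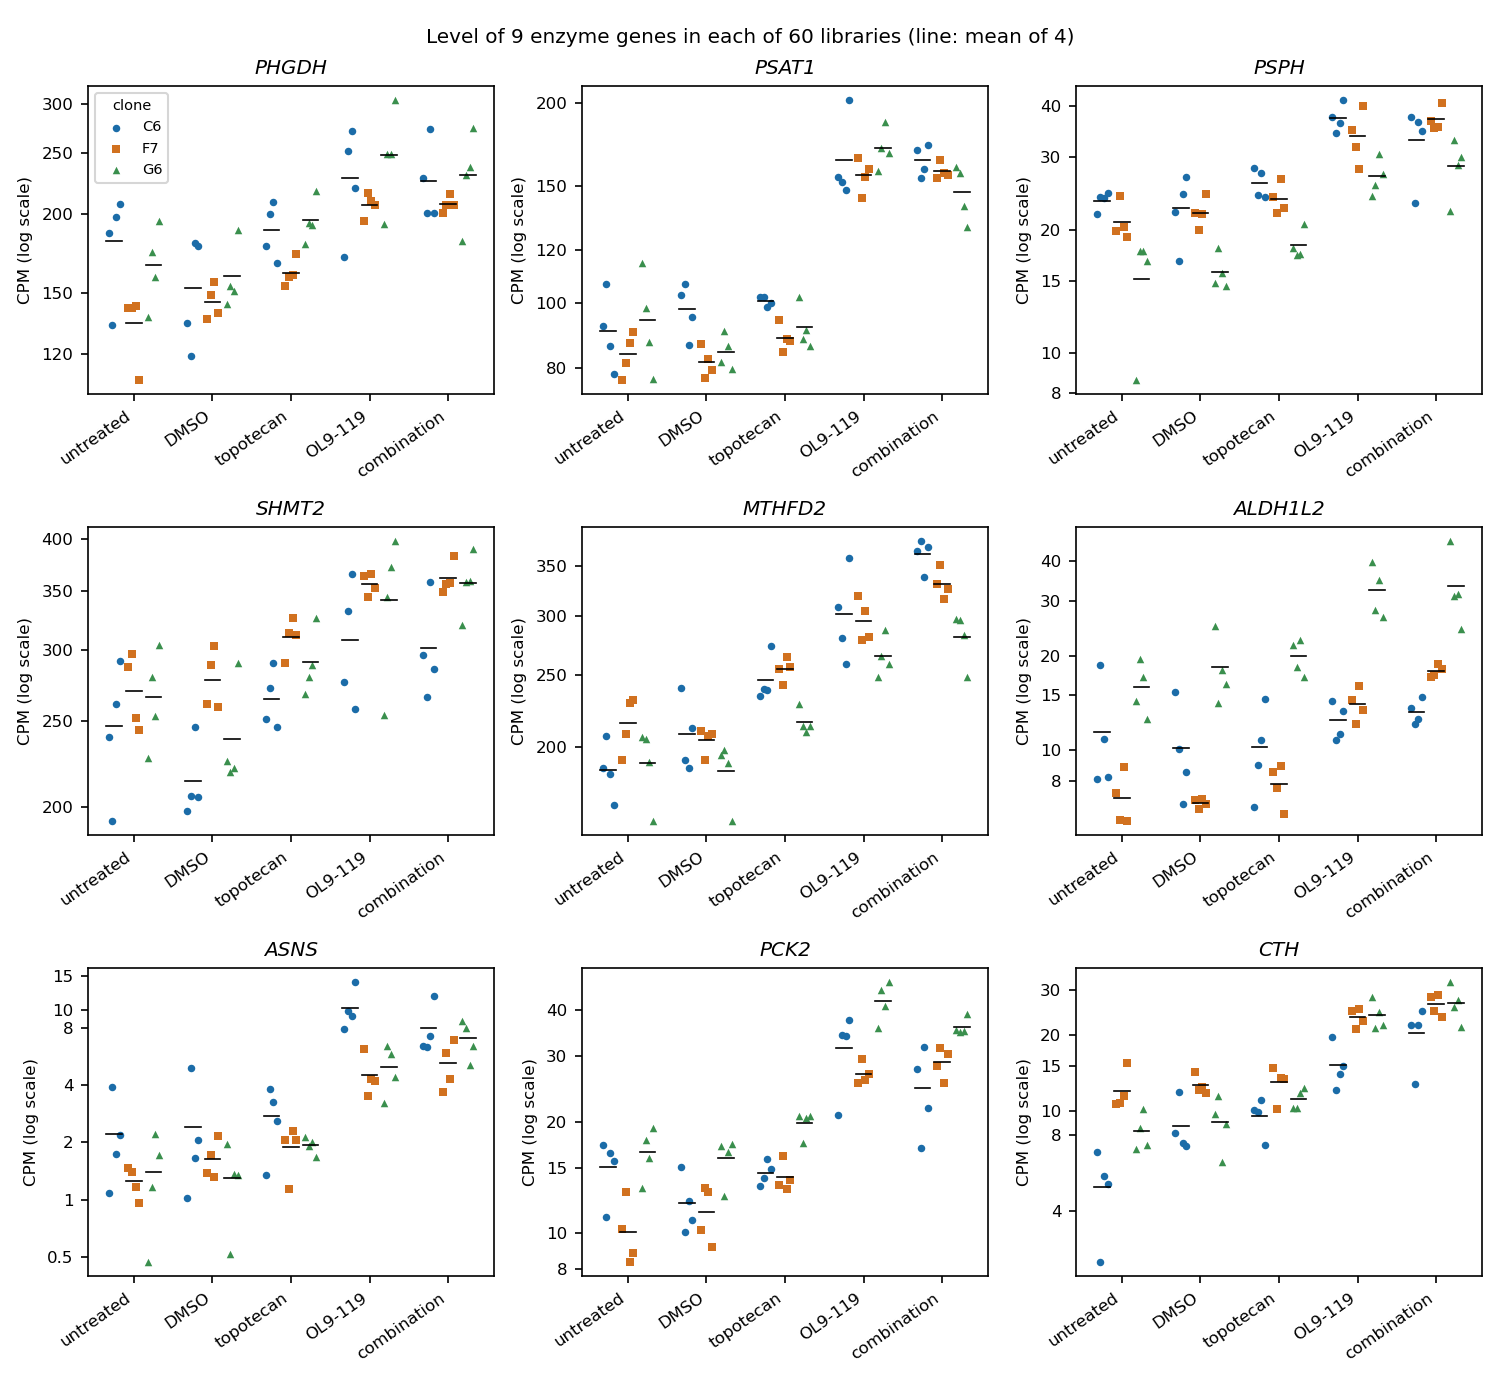
Level of 9 enzyme genes in the 60 libraries, in CPM on a log scale, by treatment (x axis) and clone (colour and symbol); short lines are means of 4 libraries. ASNS lay between 0.518 and 4.92 CPM in DMSO and between 3.22 and 13.97 CPM in OL9-119, and PSAT1 between 77.1 and 107 and between 144 and 202 CPM.

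All 3 genes of serine synthesis itself rose. PSAT1 (chromosome 9, 78297143 to 78330093, hg38), the aminotransferase of the middle step, ranged from 77.1 to 107 CPM in DMSO (median 86.4) and from 144 to 202 CPM in OL9-119 (median 159). These ranges did not touch, and the change was 0.90 ± 0.05 on the log2 scale (SE, adjusted p = 1.02e-19, edgeR), or 1.87-fold. PHGDH (chromosome 1, 119648411 to 119744226), the dehydrogenase that commits 3-phosphoglycerate to serine, ranged from 119 to 189 CPM in DMSO (median 150.1) and from 171 to 304 CPM in OL9-119 (median 218). The highest DMSO and lowest OL9-119 libraries of clone C6 overlapped, and the change was 0.58 ± 0.08 (adjusted p = 9.81e-08, edgeR), or 1.49-fold. PSPH (chromosome 7, 56011051 to 56051604), the phosphatase of the last step, ranged from 14.6 to 26.8 CPM in DMSO (median 20.8) and from 24.2 to 41.3 CPM in OL9-119 (median 33.1). Its pooled ranges overlapped because clone G6 had the lowest values under either condition, while within each clone they were apart, and the change was 0.70 ± 0.08 (adjusted p = 5.19e-09, edgeR), or 1.63-fold.

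All 3 mitochondrial one-carbon enzymes rose, and SHMT2 and MTHFD2 had the smallest changes of the 9. SHMT2 (chromosome 12, 57229327 to 57234935), the hydroxymethyltransferase, ranged from 198 to 303 CPM in DMSO (median 235) and from 254 to 398 CPM in OL9-119 (median 348). The groups overlapped in clone G6, and the change was 0.47 ± 0.06 on the log2 scale (adjusted p = 2.54e-07, edgeR). MTHFD2 (chromosome 2, 74198562 to 74217565), the dehydrogenase and cyclohydrolase that follows, ranged from 159 to 240.4 CPM in DMSO (median 196) and from 248 to 359 CPM in OL9-119 (median 280.2). Every OL9-119 library lay above every DMSO library, and the change was 0.53 ± 0.05 (adjusted p = 3.99e-12, edgeR). ALDH1L2 (chromosome 12, 105019784 to 105084577), which oxidises 10-formyl-folate to carbon dioxide, ranged from 6.49 to 24.95 CPM in DMSO (median 9.28) and from 10.8 to 39.8 CPM in OL9-119 (median 14.4). The clones sat at different levels, and the change of 0.73 ± 0.12 (adjusted p = 1.81e-05, edgeR) was 1.04 in F7, 0.81 in G6 and 0.32 in C6. In C6 alone ALDH1L2 did not pass (adjusted p = 0.513, edgeR), and without clone F7 the mean over the other clones was 0.57 (adjusted p = 0.0502, edgeR). Exons of genes on the opposite strand cover 33.2% of the exon bases of MTHFD2 (SLC4A5 and AC006030.1), 9.5% of SHMT2 and 1.7% of ALDH1L2. The library kit is directional, but no source used here gives the strand setting of the counting, and a share of those counts could belong to the other strand.

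ASNS, asparagine synthetase (chromosome 7, 97852118 to 97872542), had the largest increase of the 9 and the lowest counts among them. In clone C6 it was at 1.02, 4.92, 1.66 and 2.07 CPM in DMSO and at 7.94, 9.88, 9.25 and 13.97 CPM in OL9-119. In F7 it was at 1.38, 1.72, 1.31 and 2.15 CPM in DMSO and at 6.18, 3.51, 4.34 and 4.19 CPM in OL9-119. In G6 it was at 1.96, 0.518, 1.37 and 1.35 CPM in DMSO and at 3.22, 6.44, 5.84 and 4.44 CPM in OL9-119. The groups were apart in every clone, and the change was 1.84 ± 0.21 on the log2 scale (adjusted p = 7.21e-10, edgeR), with a 95% interval from 2.69-fold to 4.76-fold. The single libraries held only 4 to 167 ASNS counts. A further gene model on the same strand, AC079781.5, covers 84.3% of the longest protein-coding reference transcript of ASNS, so that reads falling in both could be counted for either or dropped. AC079781.5 held 358 counts over the 60 libraries, with 117 in DMSO and 64 in OL9-119, against 2646 for ASNS. With the counts of both models added up, the change was 1.40 (adjusted p = 2.58e-07, edgeR), and the level of ASNS is therefore uncertain.

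PCK2 and CTH completed the increases. PCK2 (chromosome 14, 24094053 to 24110598) ranged from 9.21 to 17.4 CPM in DMSO (median 12.7) and from 20.8 to 47.6 CPM in OL9-119 (median 34.2). The ranges did not touch, and the change was 1.35 ± 0.09 on the log2 scale (adjusted p = 1.81e-17, edgeR), or 2.54-fold. CTH (chromosome 1, 70411218 to 70439851), cystathionine gamma-lyase, ranged from 6.25 to 14.2 CPM in DMSO (median 10.6) and from 12.1 to 28.3 CPM in OL9-119 (median 21.6). Within each clone the groups were apart, and the change was 1.04 ± 0.11 (adjusted p = 4.96e-11, edgeR), or 2.05-fold.

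**Figure D2:**
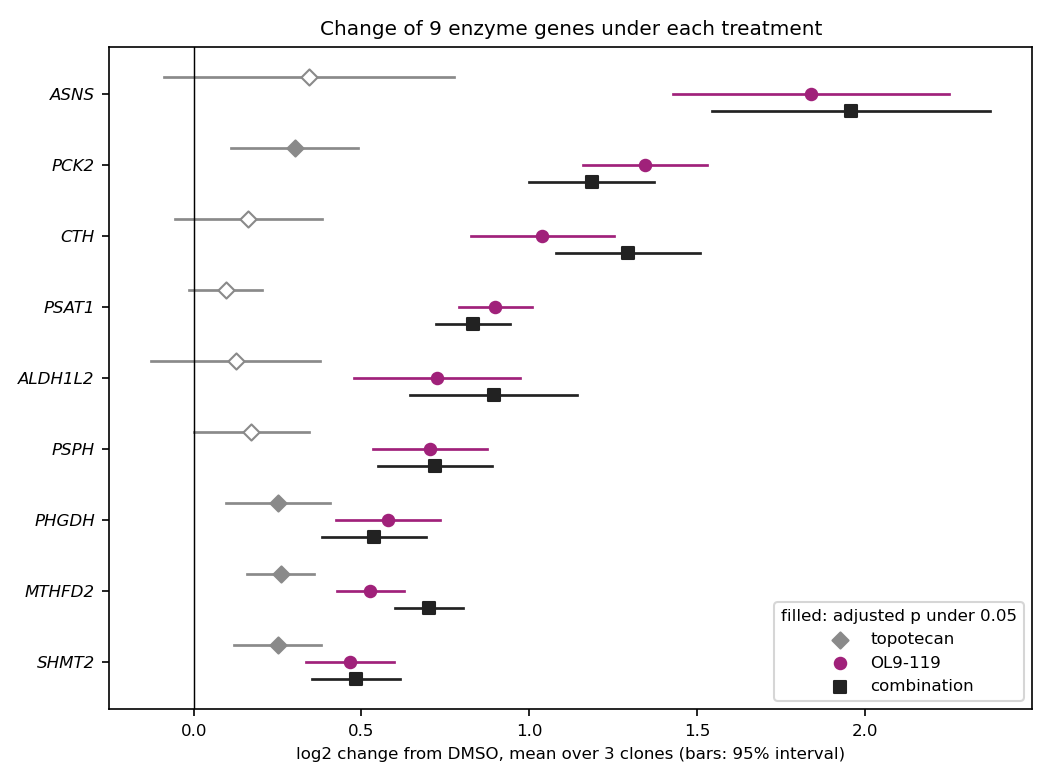
Log2 change of 9 enzyme genes from DMSO under topotecan, OL9-119 and the combination, as the mean of 3 clones with its 95% interval; filled symbols passed adjusted p under 0.05 (edgeR). ASNS is at 1.84 under OL9-119 and 1.96 under the combination, and no topotecan value exceeds 0.34.

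The promoters of the genes that moved together can be set side by side where the reference gives one. RefSeq promoter windows on GRCh38.p14, from 250 bases before to 50 bases after a start site, were found for 7 of the 10 genes, 10 windows in all since ASNS and CBS have several. Motifs were searched in the whole windows. Those of ASNS, the gene with the largest change, and of PSAT1, PHGDH and MTHFD2, of the serine and one-carbon steps, are printed as the 250 bases before the start site (for ASNS the window of the start farther upstream), 5′ to 3′ on the gene's strand. Capitals mark TGATGNAA in ASNS, the core of the element bound by C/EBP and ATF proteins (other strand TTNCATCA), and CCAAT in the others (other strand ATTGG). ASNS lies on the minus strand at chr7:97872409-97872658, PSAT1 on the plus strand at chr9:78296875-78297124, PHGDH on the plus strand at chr1:119711684-119711933, and MTHFD2 on the plus strand at chr2:74198365-74198614.
ASNS: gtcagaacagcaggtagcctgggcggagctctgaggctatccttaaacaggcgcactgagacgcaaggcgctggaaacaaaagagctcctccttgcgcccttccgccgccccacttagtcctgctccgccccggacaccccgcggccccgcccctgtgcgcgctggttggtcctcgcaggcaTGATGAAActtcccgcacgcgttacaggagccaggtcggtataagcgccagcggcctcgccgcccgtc
PSAT1: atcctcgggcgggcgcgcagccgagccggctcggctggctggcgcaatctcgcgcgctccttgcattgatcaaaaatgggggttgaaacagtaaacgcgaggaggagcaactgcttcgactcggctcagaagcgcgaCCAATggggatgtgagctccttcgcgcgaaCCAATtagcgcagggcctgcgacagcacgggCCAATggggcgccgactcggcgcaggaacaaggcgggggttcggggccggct
PHGDH: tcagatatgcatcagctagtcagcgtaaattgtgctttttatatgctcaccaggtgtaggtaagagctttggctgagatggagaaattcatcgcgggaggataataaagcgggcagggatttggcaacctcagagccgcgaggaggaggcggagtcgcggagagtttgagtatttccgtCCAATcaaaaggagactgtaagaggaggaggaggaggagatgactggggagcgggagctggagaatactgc
MTHFD2: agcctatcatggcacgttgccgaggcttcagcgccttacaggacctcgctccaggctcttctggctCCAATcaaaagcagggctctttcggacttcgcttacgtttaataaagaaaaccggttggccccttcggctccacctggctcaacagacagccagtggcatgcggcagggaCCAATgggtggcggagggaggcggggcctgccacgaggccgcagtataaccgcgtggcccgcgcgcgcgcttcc
TGATGNAA was found in 1 of the 10 windows, that of ASNS printed above, 68 bases before the start, and 3.62% of 35116 promoters of the same length hold it. CCAAT, a motif chosen after the sequences were seen, was found in 7 of the 10 windows, with 3 copies in PSAT1 and 2 in MTHFD2, and 34.61% of all promoters hold it. The 7 are 1 window each of CTH, PHGDH, MTHFD2, PSAT1 and PCK2 and 2 of CBS. The E-box CACGTG was found in 0 of the 10 windows (7.26% of all). The antioxidant response element core TGACNNNGC (other strand GCNNNGTCA) was found in 2 of the 10 windows, of MTHFD2, 6 bases after the start and so past the printed stretch, and of CBS (13.35% of all). No 2 of these hits overlapped in a member's window. A match is a description of the letters and not of a bound site.

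The rise under OL9-119 was seen in each clone taken alone. In C6 8 of the 10 genes passed (1.32% of all genes higher), in F7 8 (0.643%) and in G6 9 (0.911%), with 4 libraries against 4 (edgeR). Beside CBS, the exceptions were ALDH1L2 in C6 and SHMT2 in F7, which was at 0.36 ± 0.11 on the log2 scale there (adjusted p = 0.149, edgeR). PSAT1 changed by 0.74 in C6, 0.93 in F7 and 1.02 in G6, and PCK2 by 1.40, 1.24 and 1.40. CTH changed by 0.83, 0.89 and 1.40, and ASNS by 2.16, 1.48 and 1.88. A test of the difference between clones passed for 0 of the 10 genes (0.0263% of all), with 0 at an unadjusted p under 0.05 and 0 by DESeq2. The counts in single clones were less firm than the mean over clones: with only the 2 groups compared in the fit, 3 genes passed in C6 and 3 in G6, and without the libraries numbered 3, 3 passed in F7 and 4 in G6. Without the libraries numbered 4, 5 passed in F7. Shares of all genes are not given here for these refits, so the counts alone do not separate a general loss of calls from one in these genes. Library names carry 1 of 3 prefixes, spread evenly over the treatments, and within each prefix the mean change of each of the 9 genes was above 0, for ASNS at 2.19, 1.57 and 1.70.

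Topotecan raised 4 of the 10 over DMSO, where 5.99% of all genes passed in that direction, and lowered none, where 9.35% passed, with a median of 0.25 on the log2 scale over the 9 other than CBS, against 0.02 over all. MTHFD2 ranged from 209 to 273 CPM (median 239) against 159 to 240.4 CPM in DMSO, a change of 0.26 ± 0.05 on the log2 scale (adjusted p = 7.34e-05, edgeR). SHMT2 was at 246 to 326 CPM (median 289), a change of 0.25 ± 0.06 (adjusted p = 0.00357, edgeR). PHGDH was at 154 to 218 CPM (median 179), a change of 0.25 ± 0.08 (adjusted p = 0.0177, edgeR), and PCK2 at 13.2 to 20.7 CPM (median 15.4), a change of 0.30 ± 0.09 (adjusted p = 0.0189, edgeR). All 4 overlapped with DMSO in at least 1 clone, and none of the 10 was apart in all 3 (0.627% of all genes were). The log2 changes of the others were 0.09 for PSAT1, 0.17 for PSPH, 0.12 for ALDH1L2, 0.34 for ASNS and 0.16 for CTH. No mean change is given for CBS, whose counts are described further on. The interval for ASNS ran from -0.09 to 0.78, which leaves a rise of up to 1.71-fold undetected at these counts. The count depended on which libraries were used, and shares of all genes are not given for these refits. Without the 14 low-detection libraries it was 7, with ASNS at 0.62 (adjusted p = 0.00968, edgeR), ALDH1L2 at 0.29 (0.0278) and CTH at 0.29 (0.0212) added. It was 2 without clone F7, 2 without clone G6 and 2 without the libraries numbered 2, where PHGDH and PCK2 no longer passed. Within single clones topotecan raised MTHFD2 in F7 (0.31, adjusted p = 0.0358, edgeR, 0.242% of all genes higher) and none in C6 (1.58%) or G6 (2.32%), where 3 genes each were at an unadjusted p under 0.05 and DESeq2 called 0. The MTHFD2 call in F7 was lost without any 1 of 7 of its 8 libraries, all but topotecan replicate 2. The test of a difference between clones passed for 0 of the 10 (0.137% of all), with 0 at an unadjusted p under 0.05 and 0 by DESeq2. Without DMSO replicate 1 or 3 of C6, 1 gene passed in C6, and without DMSO replicate 4 of G6, 1 passed in G6.

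The combination raised the same 9 genes as OL9-119 over DMSO, where 9.52% of all genes passed in that direction. The median change of the 9 was 0.83 on the log2 scale, against -0.01 over all genes, and the comparison shares its DMSO libraries with those above. ASNS was at 3.70 to 11.8 CPM (median 6.41), a change of 1.96 ± 0.21 (adjusted p = 3.37e-11, edgeR). CTH was at 12.8 to 32.3 CPM (median 24.8), a change of 1.29 ± 0.11 (adjusted p = 9.29e-15, edgeR), and PCK2 at 17.0 to 38.98 CPM (median 31.1), a change of 1.19 ± 0.09 (adjusted p = 1.36e-15, edgeR). The remaining log2 changes were 0.89 for ALDH1L2, 0.83 for PSAT1, 0.72 for PSPH, 0.70 for MTHFD2, 0.54 for PHGDH and 0.48 for SHMT2. PSAT1, SHMT2, MTHFD2, ASNS, PCK2 and CTH lay above DMSO with no overlap in any clone (1.18% of all genes). By clone 8 genes passed in C6 (4%), 9 in F7 (1.65%) and 9 in G6 (3.17%), and the test of a difference between clones passed for 0 (0.169% of all), with 1 gene, ALDH1L2, at an unadjusted p under 0.05 and 0 by DESeq2.

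Adding OL9-119 to topotecan raised the same 9 genes, and adding topotecan to OL9-119 raised 1. Against topotecan alone the combination was higher by 1.62 ± 0.20 on the log2 scale for ASNS (adjusted p = 1.98e-08, edgeR), 1.13 ± 0.11 for CTH (3.05e-12), 0.89 ± 0.09 for PCK2 (9.05e-11) and 0.74 ± 0.05 for PSAT1 (5.4e-16), where 3.33% of all genes passed in that direction. PHGDH (0.29) and SHMT2 (0.23) were the smallest of the 9, and without clone F7 neither they nor ALDH1L2 passed. Against OL9-119 alone the combination was higher for MTHFD2, by 0.17 ± 0.05 (adjusted p = 0.0109, edgeR), with 5% of all genes passing in that direction. MTHFD2 did not pass without clone C6 (0.14, adjusted p = 0.0972, edgeR), without clone F7 (0.20, 0.0674) or without the libraries numbered 2 (0.13, 0.244). CTH was next at 0.26 ± 0.10 (adjusted p = 0.0923, edgeR), and it passed by DESeq2 (adjusted p = 0.0345), without the low-detection libraries (0.36, 0.00581), and without OL9-119 replicate 1 of C6, combination replicate 2 of C6 or combination replicate 4 of G6. For the other 7 with enough counts, the 95% intervals of the difference reached from -0.34 (PCK2) to 0.49 (ASNS).

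The combined change lay below the sum of the single changes for 7 of the 9 genes other than CBS, and no difference passed the test. For PCK2 the sum of the OL9-119 and topotecan changes was 1.65 on the log2 scale and the combination gave 1.19, a difference of -0.46 ± 0.13 (95% interval -0.72 to -0.20, adjusted p = 0.419, edgeR). For PHGDH the sum was 0.83 and the combination 0.54, for SHMT2 0.72 and 0.48, and for PSAT1 0.99 and 0.83. None of the 10 passed after adjustment (0.0316% of all genes), and DESeq2 called 0. At an unadjusted p under 0.05 (edgeR), 4 were below 0 (PCK2, PHGDH, SHMT2 and PSAT1), and the share of all genes at that threshold is not given here. The median was -0.16 for the 9 genes and -0.02 over all genes. These 9 genes vary together and share libraries, so 7 of 9 is not a count of separate results. ALDH1L2 (0.04) and CTH (0.09) lay on the other side of 0, with intervals from -0.30 to 0.39 and from -0.21 to 0.39.

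**Figure D3:**
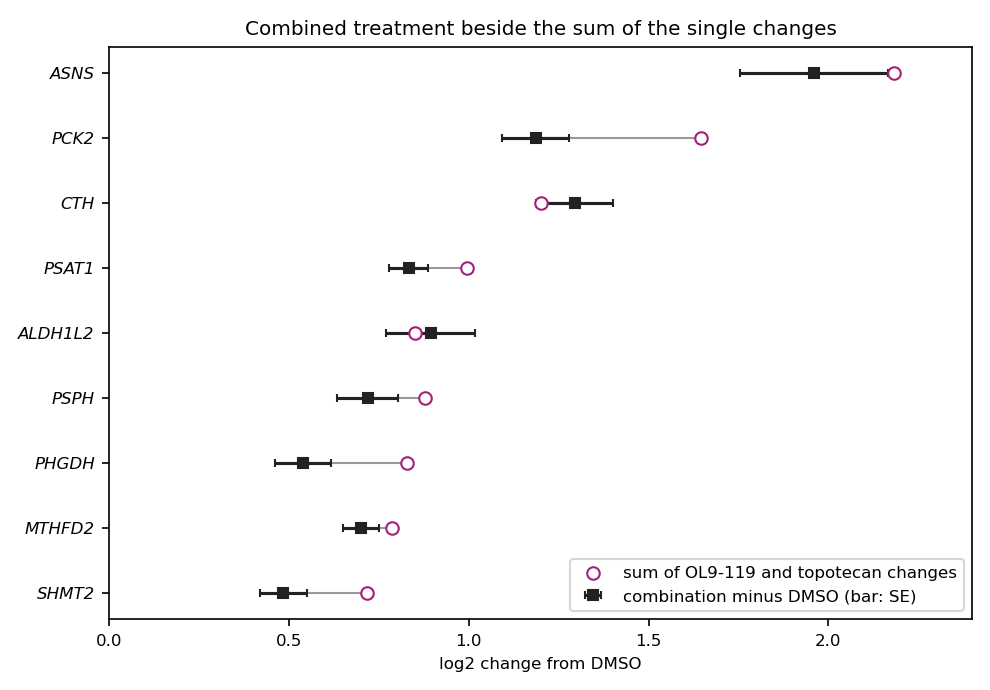
Log2 change of 9 enzyme genes from DMSO under the combination (squares, bar is 1 SE) beside the sum of the changes under OL9-119 and topotecan alone (open circles). The sum lies above the combination for 7 of the 9 genes, by the most for PCK2 (1.65 against 1.19), and below it for ALDH1L2 and CTH.

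DMSO alone changed none of the genes against untreated cells (0.0158% of all genes passed). CTH was the only one at an unadjusted p under 0.05, at 0.32 ± 0.11 on the log2 scale (adjusted p = 0.748, edgeR), and DESeq2 called 0. Untreated CTH reached from 2.53 CPM, in clone C6, to 15.4 CPM, in clone F7. The intervals for PSAT1 (-0.14 to 0.08) and MTHFD2 (-0.08 to 0.12) lay within 0.14 of 0.

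The clones differed in the level of some of the enzymes before any compound was added, which was also common among other genes. In DMSO 4 of the 10 differed between C6 and F7 (39.5% of all genes in either direction), 3 between C6 and G6 (24.4%) and 3 between F7 and G6 (17.1%). The counts for C6 against F7 and for C6 against G6 include CBS, which passed the low-count filter through clone C6 alone and is described further on. ALDH1L2 was at 18.4 ± 4.65 CPM (SD, n = 4) in G6, 10.2 ± 3.68 in C6 and 6.80 ± 0.227 in F7. It was lower in F7 than in G6 by a log2 difference of -1.44 ± 0.22 (adjusted p = 1.12e-06, edgeR) and in C6 than in G6 by -0.89 ± 0.22 (adjusted p = 0.00142, edgeR). PSPH ran the other way, with 15.8 ± 1.54 CPM in G6 against 22.5 ± 4.27 in C6 and 22.0 ± 1.85 in F7, and was higher by 0.54 ± 0.15 in C6 (adjusted p = 0.00596, edgeR) and by 0.48 ± 0.15 in F7 (0.0186). SHMT2 (-0.38 ± 0.11, adjusted p = 0.00551, edgeR) and CTH (-0.58 ± 0.19, 0.0132) were lower and PSAT1 (0.26 ± 0.09, 0.0217) higher in C6 than in F7, and PCK2 was lower in F7 than in G6 (-0.49 ± 0.16, 0.0288). Leaving out 1 library, or 1 replicate number in every group, moved these counts to between 2 and 5, 1 and 5, and 1 and 4. The count for F7 against G6 was 1 without DMSO replicate 1 of G6 or DMSO replicate 4 of F7. Shares of all genes are not given here for these refits. Of the 14 low-detection libraries 10 are in C6, and their part in the clone differences was not tested for each gene.

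CBS (chromosome 21, 43053191 to 43076943) could not be followed like the others. It held 181 counts in the 60 libraries, 171 of them in clone C6, where each of the 20 libraries had at least 1, and 10 in F7 and G6 together, where 8 of 40 libraries had any. In C6 the 4 libraries held 20 counts in all under DMSO (1 to 8 each), 52 under OL9-119 (8 to 20), 44 under topotecan (6 to 14), 28 under the combination (4 to 10) and 27 untreated (2 to 10). The change within C6 under OL9-119 was 0.90 ± 0.73 on the log2 scale (adjusted p = 0.595, edgeR), and CBS passed in none of the treatment comparisons. In DMSO it was called higher in C6 than in F7 (adjusted p = 0.000121, edgeR), whose 4 DMSO libraries had 0 counts, and than in G6 (0.00399), which had 1. With so few counts in F7 and G6, CBS passed the low-count filter through clone C6 alone. The direction of these calls was therefore set in advance, and they are no independent evidence.

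Most counts of CBS and the near-identical gene model CBSL were assigned to CBSL. Of the 100-base stretches of the longest protein-coding reference transcript of CBS, 92.4% also occur in CBSL, so a short read can rarely be placed in one of them alone. The split of counts between these models therefore does not give a level for either alone, in any clone. CBSL held 1690 counts. The share of CBS among the counts of both was 28.1% in C6 (95% interval 24.5 to 31.8%, exact binomial), 0.896% in F7 (0.292 to 2.08%) and 0.71% in G6 (0.231 to 1.65%), intervals that cover counting error only. The sum of both was more alike in the clones, at 2.99 ± 0.922 CPM in C6 (SD, n = 20) and 2.45 ± 0.909 in F7 and G6 together (n = 40). For the sum, the log2 change from DMSO was 0.63 under the combination (adjusted p = 0.00701, edgeR), 0.51 under OL9-119 (0.0578) and 0.14 under topotecan (0.695). These sums were formed after the counts had been seen.

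**Figure D4:**
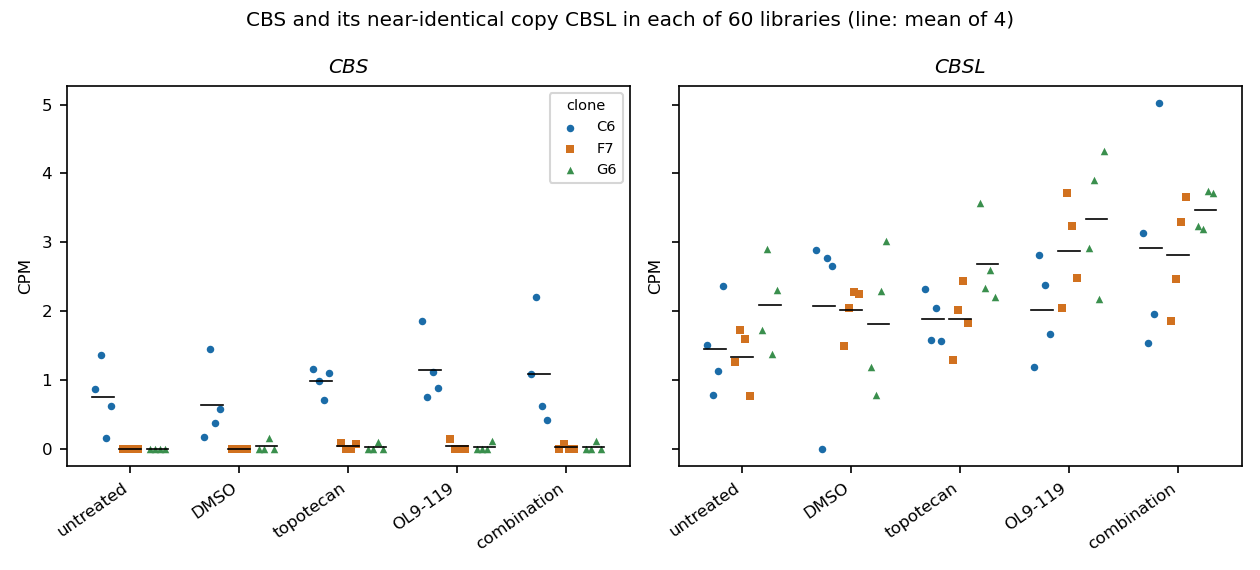
CPM of CBS (left) and CBSL (right) in the 60 libraries by treatment and clone; short lines are means of 4 libraries. CBS counts are nearly confined to clone C6, with 171 of 181 counts, whereas CBSL was counted in all libraries but 1.

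SHMT2, MTHFD2, ALDH1L2 and PCK2 have a cytosolic counterpart for the same step, which gives a comparison within each library. The scaling of the library cancels in this ratio except through the prior count, which matters where counts are low. The log2 ratio of SHMT2 to the cytosolic SHMT1 was 2.90 ± 0.299 in DMSO and 3.30 ± 0.254 in OL9-119 (SD, n = 12), a difference of 0.40, from 0.17 to 0.55 in the single clones (exact permutation test within clones, 2-sided, adjusted over 12 tests, p = 1.75e-05). The ratio of MTHFD2 to the cytosolic, trifunctional MTHFD1 went from -0.26 ± 0.286 to 0.26 ± 0.254 under OL9-119, a difference of 0.52 (adjusted p = 1.75e-05, same test). The ratio of PCK2 to PCK1 went from 2.11 ± 0.830 to 3.09 ± 0.639, a difference of 0.98 (adjusted p = 0.000724, same test). That is less than the change of 1.35 in PCK2 itself (edgeR), and the level of PCK1 is not given here. The ratio of ALDH1L2 to ALDH1L1 was 0.29 higher (adjusted p = 0.596, same test), with ALDH1L1 at 0 to 1.40 CPM in DMSO, so that its ratio varied widely between libraries. SHMT1 itself changed by 0.06 ± 0.06 and MTHFD1 by 0.01 ± 0.04 under OL9-119 (adjusted p = 0.684 and 0.928, edgeR).

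Under topotecan MTHFD2 gained on MTHFD1 by 0.36 (adjusted p = 2.81e-05, exact permutation test within clones) and SHMT2 on SHMT1 by 0.08 (0.0977). The ratio of PCK2 to PCK1 changed by 0.06 and that of ALDH1L2 to ALDH1L1 by -0.11 (adjusted p = 0.804 for each, same test). MTHFD1 had a mean of 240 CPM in DMSO, 224 CPM under topotecan and 219 CPM under the combination, so its ratio reflects both genes. Under the combination the MTHFD2 ratio was 0.83 higher, between 0.76 and 0.89 in each clone, and the SHMT2 ratio 0.39 higher (adjusted p = 1.75e-05 for each, exact permutation test). The smallest unadjusted p that this test allows is 5.83e-06, and these reached it. PCK2 gained on PCK1 by 1.21 under the combination, from 0.82 to 1.88 in the single clones (adjusted p = 0.00153, same exact test). In C6, combination replicate 2 had a ratio of 6.68, against 1.82 to 3.09 in its other combination libraries. That library held the fewest counts of all (4.62 M). ALDH1L2 gained on ALDH1L1 by 0.92 (adjusted p = 0.14, same exact test).

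**Figure D5:**
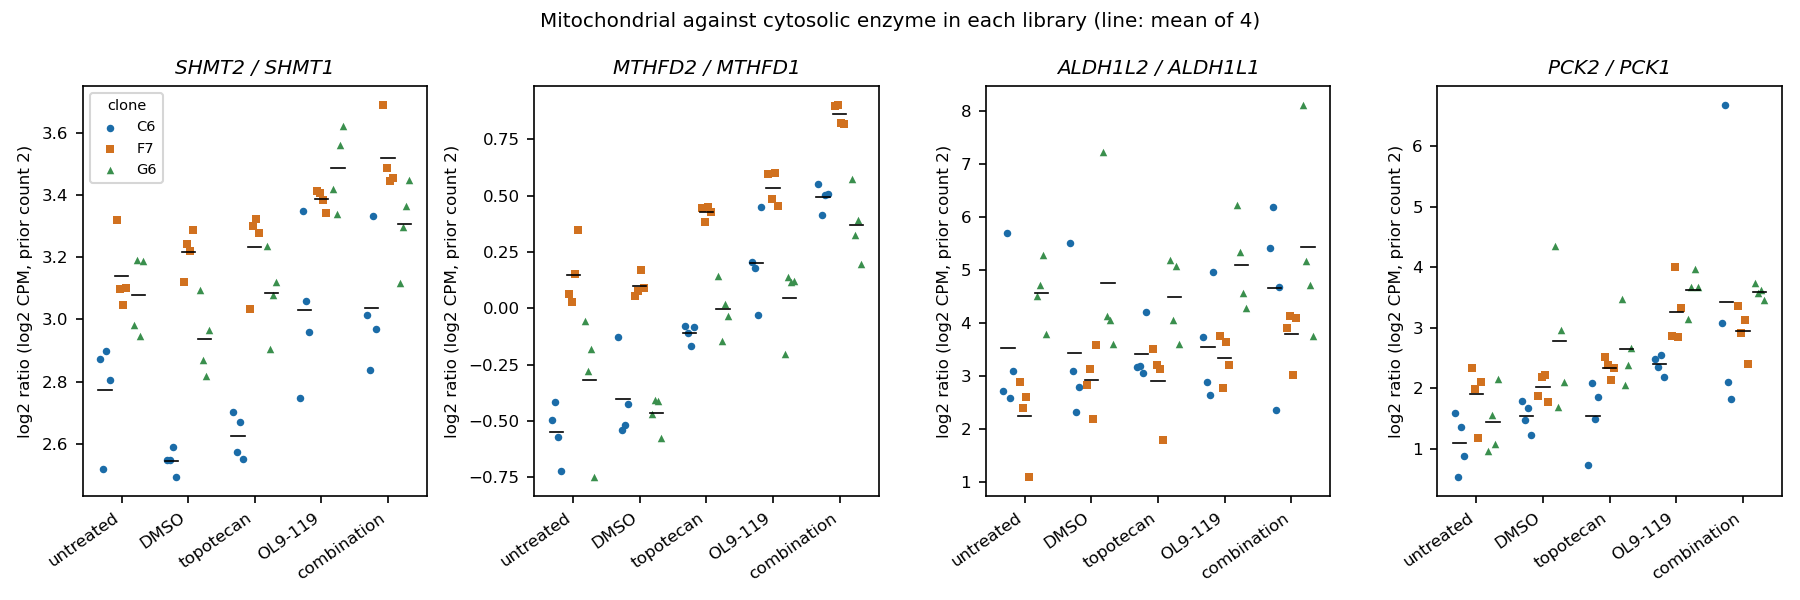
Log2 ratio of a mitochondrial enzyme to its cytosolic counterpart in each library, by treatment and clone, from log2 CPM with a prior count of 2; short lines are means of 4 libraries. The MTHFD2 ratio is higher in all 3 treatments than in DMSO, by 0.36 under topotecan, 0.52 under OL9-119 and 0.83 under the combination.

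Genes of the neighbouring pathways are set beside the shares of all genes that passed, which after OL9-119 were 4.47% higher and 5% lower. Of 23 tested genes of serine, glycine and folate metabolism outside the 10, 1 was higher after OL9-119, MTHFD1L, the mitochondrial synthetase that releases formate (0.17 ± 0.05 on the log2 scale, adjusted p = 0.00786, edgeR). Lower in that list were SFXN1, a mitochondrial serine transporter (-0.19 ± 0.04, adjusted p = 0.00185, edgeR), and PAICS, a purine synthesis enzyme (-0.19 ± 0.06, 0.0217). The list's median was -0.0025, against 0.73 for the 9 enzymes and 0.01 for all genes, and its share of higher genes was near that of all genes. The members and the lists of neighbouring pathways were chosen with earlier results of these data known, so this contrast is no independent evidence. After topotecan the log2 change of MTHFD1L was -0.36 (adjusted p = 1e-08, edgeR), in contrast to the value for MTHFD2, and under the combination it was -0.21 (0.000279), with 1 gene of the list higher and 6 lower (9.52% and 11.7% of all genes). The count of lower genes in this list after OL9-119 ranged from 0 to 5 over the alternatives and left-out clones or replicate numbers tried. Shares of all genes are not given here for those fits.

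Of 16 tested genes of methionine, cysteine and glutathione metabolism, OL9-119 raised 1 and lowered 1. The gene raised was CHAC1, which degrades glutathione (3.01 ± 0.17 on the log2 scale, adjusted p = 1.78e-21, edgeR), and the gene lowered was MAT2A, which makes S-adenosylmethionine (-0.21 ± 0.04, 1.23e-05). Of 18 genes of other amino acid synthesis, 4 were higher and 4 lower. GPT2, the mitochondrial alanine aminotransferase, rose by 0.89 ± 0.08 (adjusted p = 5.34e-14, edgeR), and ALDH18A1 of proline synthesis (-0.22), ornithine decarboxylase ODC1 (-0.19) and ornithine aminotransferase OAT (-0.23) fell. Of 16 genes around phosphoenolpyruvate and the tricarboxylic acid cycle, 0 passed after OL9-119 (edgeR), with 4 at an unadjusted p under 0.05 and 0 by DESeq2.

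Of 16 regulators known to act on these enzyme genes, 9 were higher and 0 lower after OL9-119 (4.47% and 5% of all genes), with a median of 0.50 on the log2 scale. The list was drawn up with earlier results of these data known and is no independent evidence. ATF4, whose protein level is set largely by translation, rose at the RNA level by 0.49 ± 0.03 (adjusted p = 4.09e-17, edgeR). DDIT3, which encodes CHOP, rose by 1.55 ± 0.07 (adjusted p = 1.73e-25), TRIB3, a pseudokinase, by 1.22 ± 0.06 (6.46e-23), ATF3 by 0.72 ± 0.04 (2.24e-23) and CEBPG, a partner of ATF4, by 0.69 ± 0.05 (2.85e-18, all edgeR). The 4 genes of the kinases that phosphorylate eIF2alpha, EIF2AK1 to EIF2AK4, were between -0.03 and 0.08 and did not pass. After topotecan 9 regulators were higher and 1 lower (5.99% and 9.35% of all genes), with ATF3 (0.94) and PPP1R15A (0.70) changing most clearly, and the 9 enzyme genes other than CBS were at 0.09 to 0.34 in the same libraries. After the combination 11 were higher and 1 lower (9.52% and 11.7% of all genes), and ATF3 and DDIT3 fell short of the sum of the single changes by 0.58 and 0.51 on the log2 scale (interaction -0.58 ± 0.05, adjusted p = 7.88e-12, and -0.51 ± 0.10, adjusted p = 0.0112, edgeR).

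The 9 enzymes other than CBS varied together over the groups. Over the 15 group means, each clone centred on its own mean, the correlation between 2 of them ran from r = 0.80 to r = 0.98 (median 0.92 over 36 pairs), a description of points that share libraries and treatments. Among 12348 other genes whose mean log2 CPM was 2 or more, those most like the mean of the members were the glycine transporter gene SLC6A9 (r = 0.989 over 15 group means), CHAC1 (0.989), the transcription factor gene CEBPB (0.986), GPT2 (0.986) and the cysteinyl-tRNA synthetase gene CARS1 (0.985). SLC6A9 rose with OL9-119 from a mean of 5.44 to 18.9 CPM and CARS1 from 99.2 to 154 CPM. CHAC1, GPT2 and CEBPB are also on the lists above. Without the low-detection libraries CARS1, CHAC1 and GPT2 remained among the first 5, joined by SETDB1 and NUPR1.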

How the data were processed

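RNA was extracted with Trizol, enriched for poly(A) and made into directional libraries, per the labels' protocols. The deposited table holds raw counts per Ensembl gene for 60 libraries. Per the submitters' processing notes, the tools were STAR 2.7.8, FastQC 0.11.9 and Picard 2.26.6 with the build hg38. How reads were counted, with which annotation and strand setting, is not given in the sources used here. Coordinates and exon lengths came from GENCODE 29 and promoters from RefSeq.

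Counts were scaled with TMM, filtered with filterByExpr on 15 groups (18985 genes left) and tested with the quasi-likelihood test of edgeR 4.0.16 in R 4.3.3 with limma 3.58.1, 2-sided, with Benjamini-Hochberg adjustment over all genes tested and a threshold of 0.05. A treatment change is the mean of the differences within 3 clones, and its SE is the size of the log2 change divided by the square root of F. Ratios of partner enzymes used log2 CPM with a prior count of 2 and an exact permutation test over 343000 reassignments within clones. The fit was tested on simulated data. Replicates differed by more than counting noise in all 90 pairs (chi-square per degree of freedom 2.24 to 56.5).

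The members, the pathway lists and the low-detection libraries (under 20000 genes at 4.5 M counts) were chosen with earlier results of these data known. All members were named, with up to 4 genes per list of smallest p and the 5 genes most like the members. ATF4, the EIF2AK genes, and MTHFD1L under the combination were named in addition after their values were seen. Alternatives were DESeq2 1.42.0 and its size factors, other filters and fits, a replicate block, and left-out libraries, replicate numbers and clones.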

Additional observations from a re-analysis of the deposited data

Results flagged for a closer look

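Within single groups of 4 libraries, 12 of 140 member and group combinations held 1 library far from the other 3 by Dixon's 95% critical value for the gap to the nearest library. Chance alone gives about 1 in 20. In clone C6, SHMT2 was at 246 CPM in DMSO replicate 3, MTHFD2 at 273 CPM in topotecan replicate 4, PSAT1 at 202 CPM in OL9-119 replicate 4 and ASNS at 11.8 CPM in combination replicate 4. In clone F7, PHGDH was at 109 CPM and CTH at 15.4 CPM in untreated replicate 4, and MTHFD2 was at 192 CPM in DMSO replicate 2. In clone G6, PSPH was at 8.63 CPM in untreated replicate 1 and SHMT2 at 290.3 CPM in DMSO replicate 4. PCK2 stood apart in 3 groups of G6, at 12.6 CPM in DMSO replicate 2, 17.5 CPM in topotecan replicate 2 and 38.98 CPM in combination replicate 4.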

How the results depend on the processing

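Over the alternatives, 8 to 9 of the 10 genes passed for OL9-119 against DMSO (8 without clone F7) and 9 to 10 for the combination (10 with CBSL counts added to CBS). No direction reversed. The other counts were less stable. Shares of all genes are not given for the refits in this section, so its counts do not separate a general gain or loss of calls from one in these genes. For topotecan against DMSO, 4 genes became 7 without the low-detection libraries, 2 without clone F7 and 2 without clone G6. Within clones it raised 1 gene in C6, 0 in F7 and 2 in G6 with no low-count filter, and 3 in G6 without the low-detection libraries. For the combination against OL9-119, the single gene became 2 by DESeq2, 2 without the low-detection libraries, 0 without clone C6 and 0 without clone F7. With only the compared groups in the fit, 1 gene differed between C6 and G6, and OL9-119 raised 3 in C6 and 3 in G6. Without the low-detection libraries, ALDH1L2 gained 0.47 on ALDH1L1 under OL9-119 (adjusted p = 0.0364, permutation test), and 3 of the 5 genes most like the members were shared.

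Leaving out a replicate number or a library gave 2 to 4 genes for topotecan, 0 to 2 for the combination against OL9-119, and 2 to 5, 1 to 5 and 1 to 4 for C6 against F7, C6 against G6 and F7 against G6. For OL9-119 it gave 6 to 8 in C6, 3 to 7 in F7 and 4 to 9 in G6, and for topotecan 0 to 1 in each clone. The ratio of SHMT2 to SHMT1 rose by 0.059 to 0.096 under topotecan and passed at 0.0857 without replicate 1, and that of ALDH1L2 to ALDH1L1 by 0.66 to 1.06 under the combination, passing at 1.02 without replicate 1. The cause was not tested in any of these cases.

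Same-numbered libraries of a clone deviated together for some numbers and not for others. Of 120 comparisons 46 had a correlation over 0.1 (median 0.04) and in 62 the own number was the best. All 10 comparisons were over 0.1 for C6 replicate 3 (0.17 to 0.41), G6 replicate 1 (0.12 to 0.24) and G6 replicate 4 (0.21 to 0.44), while for no number of F7 were they. These are hints from the data, the labels tie no number to a shared source, and the number was not taken as a pairing. With it as a block, the counts were 9 for OL9-119, 4 for topotecan and 9 for the combination, and topotecan passed for 3 genes in C6 and 3 in G6. Depth limits CBS and, less so, ASNS and ALDH1L1.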
